A study of Mus musculus with 18 samples.

Results

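Macrophages in the airspaces of the lung can release the cytokines tumour necrosis factor, interleukin-1 and interleukin-18, and they hold inhibitors that end the signal. The 9 genes described here were Tnf, Il1a, Il1b, Il18 and Il1rn, which encode these cytokines and the interleukin-1 receptor antagonist, Nlrp3, an inflammasome sensor, and Nfkbia, Tnfaip3 and Nfkbiz, which feed back on NF-κB. They were chosen by symbol from a table of 32789 genes. All 9 were found, and all 9 were among the 12900 genes that passed the filter on low counts. The list was drawn up with earlier results of these libraries known, so its counts are descriptions and are read beside the share of all genes called.

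RNA sequencing was done on alveolar macrophages that were washed from mouse lungs and enriched by magnetic CD11c beads. The Vhl/Hif1a knockout (CD11c-Cre_Vhl-Hif1-KO in the labels) carried CD11c-Cre with a loss of Vhl and Hif1a, and its control (Control Vhl-Hif1a_flox-flox) carried floxed Vhl and Hif1a alleles. The Vhl/Hif2a knockout (CD11c-Cre_Vhl-Hif2-KO) lost Vhl and Hif2a, whose gene symbol is Epas1, against floxed alleles of both in its control (Control Vhl-Hif2a_flox-flox). The triple knockout (CD11c-Cre_Vhl-Hif1-Hif2-KO) lost all 3 genes, against the 3 floxed genes in its control (Control Vhl-Hif1-Hif2a_flox-flox). The labels do not say whether the controls carried Cre, nor give age, sex or strain. CD11c-Cre is active in CD11c-positive cells, which include dendritic cells as well as alveolar macrophages. Each group had 3 libraries, 18 in all, and the labels do not say whether they came from separate animals, so p-values measure the spread between libraries. Vhl encodes the protein that marks HIF-α subunits for degradation, so HIF-2α is the subunit left to accumulate in the Vhl/Hif1a knockout and HIF-1α in the Vhl/Hif2a knockout.

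NF-κB dimers are held in the cytoplasm by IκB proteins and are freed when a receptor such as TLR4, IL-1R1 or TNFR1 activates the IKK complex. The freed factor switches on Tnf, Il1a, Il1b and Nlrp3, and also its own inhibitors: Nfkbia encodes IκBα, which takes NF-κB back out of the nucleus, and Tnfaip3 encodes A20, a ubiquitin-editing enzyme that shuts down signalling upstream of IKK. Nfkbiz encodes IκBζ, a nuclear cofactor for a later set of targets. IL-1β and IL-18 are made as precursors that caspase-1 cuts after an inflammasome such as that of NLRP3 forms, so their RNA is no measure of secreted cytokine. The antagonist encoded by Il1rn binds the IL-1 receptor without signalling.

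The promoters of a pair of feedback genes, Nfkbia and Tnfaip3, and a pair of cytokine genes, Tnf and Il1b, are shown because NF-κB is known to act on all of them. Over the 18 libraries the genes within each pair were correlated (Pearson r = 0.86 in both pairs). They did not share all calls: Tnf and Nfkbia passed in the Vhl/Hif2a knockout, and Il1b and Tnfaip3 did not. Each is the RefSeq window on GRCm38.p6 from 250 bases before to 50 bases after the start, 5′ to 3′ on the gene's strand, and capitals mark matches to the 10-base NF-κB motif on either strand.
Nfkbia: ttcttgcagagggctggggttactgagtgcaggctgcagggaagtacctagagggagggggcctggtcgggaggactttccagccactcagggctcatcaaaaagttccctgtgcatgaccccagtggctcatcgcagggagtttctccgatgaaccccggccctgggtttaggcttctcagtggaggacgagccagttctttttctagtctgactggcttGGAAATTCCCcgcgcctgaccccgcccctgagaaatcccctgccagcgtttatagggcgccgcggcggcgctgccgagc
Tnfaip3: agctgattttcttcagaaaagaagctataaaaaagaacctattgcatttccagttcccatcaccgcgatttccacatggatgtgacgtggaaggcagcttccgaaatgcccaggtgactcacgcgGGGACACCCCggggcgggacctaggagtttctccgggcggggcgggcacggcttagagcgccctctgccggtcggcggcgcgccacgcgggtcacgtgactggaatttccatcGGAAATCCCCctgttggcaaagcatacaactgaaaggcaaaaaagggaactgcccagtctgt
Tnf: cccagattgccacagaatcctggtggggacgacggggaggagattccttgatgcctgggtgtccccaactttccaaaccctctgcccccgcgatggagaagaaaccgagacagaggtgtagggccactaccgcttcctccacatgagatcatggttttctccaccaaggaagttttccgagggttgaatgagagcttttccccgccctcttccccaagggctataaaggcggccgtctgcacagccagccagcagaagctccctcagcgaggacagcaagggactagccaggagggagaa
Il1b: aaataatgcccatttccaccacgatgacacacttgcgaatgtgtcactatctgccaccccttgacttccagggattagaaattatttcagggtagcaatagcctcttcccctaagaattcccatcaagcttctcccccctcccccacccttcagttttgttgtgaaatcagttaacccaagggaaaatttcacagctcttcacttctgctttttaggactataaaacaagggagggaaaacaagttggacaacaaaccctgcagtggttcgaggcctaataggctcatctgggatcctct
The windows lie at chr12:55492598-55492897 (Nfkbia), chr10:19015361-19015660 (Tnfaip3), chr17:35201958-35202257 (Tnf) and chr2:129371090-129371389 (Il1b), all on the minus strand. The NF-κB motif was found 1 time in the Nfkbia window and 2 times in the Tnfaip3 window, and these letters were not in the Tnf and Il1b windows. Of the 8 members matched to this table by symbol, all but Nfkbiz, 3 held it in at least 1 window (Nfkbia, Tnfaip3 and Nlrp3), where a gene had up to 3 windows. Counted by single window, and so not on the same unit, 4.51% of all windows of this length held it. The hypoxia-response cores ACGTG and GCGTG, searched on both strands, were in the Tnfaip3 window shown and in none of the other 3. They are found in 19.6% and 32.4% of all windows. The AP-1 motif TGANTCA, searched on both strands, was also in the Tnfaip3 window and not in the other 3, and 7.81% of all windows held it. In the Tnfaip3 window 2 of the ACGTG matches overlap on opposite strands, and the TGANTCA match overlaps a GCGTG match on the minus strand. A match is a description of the letters and not a measured binding site.

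Total counts per library ran from 19230452 to 34015320. Vhl was at 1.92 to 3.09 normalised counts scaled to library size (CPM) in the knockout libraries, against 12.2 to 20.1 CPM in the controls. Gene totals of Hif1a and Epas1 include exons outside the deleted part and do not check those deletions, so the groups are named by their labels. The Hif1a total was 58.7 to 78.6 CPM in the Vhl/Hif2a knockout, against 179 to 242 CPM in its control (log2 fold change -1.71, edgeR adjusted p = 4.3e-06). The Epas1 total rose there (0.97, edgeR adjusted p = 0.0019). Neither gene was called in the Vhl/Hif1a or triple knockout. The cause of these changes in Hif1a and Epas1 was not tested. The 12 alveolar macrophage markers summed to 24354 to 42595 CPM, while the summed markers of T and NK cells, B cells and mast cells, basophils and eosinophils each stayed at or below 0.931 CPM in every library. The alveolar macrophage sums were higher in each knockout, without overlap. They were 35434 to 42595 CPM in the Vhl/Hif1a knockout and 31061 to 32241 CPM in its control. In the Vhl/Hif2a cross they were 36323 to 39177 CPM in the knockout and 27724 to 31731 CPM in its control. In the triple cross they were 35852 to 36394 CPM in the knockout and 24354 to 32605 CPM in its control. Chil3 had the highest median of these markers, 22644 CPM. Of the neutrophil markers Ly6g was at 0 in 18 of 18 libraries, and Csf3r (24.5 to 82.2 CPM), Mmp8 (29.3 to 95.6 CPM) and Cxcr2 (3.32 to 21.8 CPM) were detected in all 18. In 2 control libraries Egln3, a HIF target, was above its level in the other controls of the cross: 32.5 CPM in Vhl/Hif1a control 3 against 0.464 and 0.617, and 11.5 CPM in Vhl/Hif2a control 1 against 2.47 and 0.465. Triple control 2 stood apart from its replicates, with a mean chi-square per gene of 131 and 133 against 9.04 to 45.4 for the other pairs of replicates. No pair of replicates of 1 group was close enough to be 1 library deposited 2 times.

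In the Vhl/Hif1a knockout, 4 of the 9 genes fell and none rose: Tnf, Il1a, Il1b and Il1rn. Tnf and Il1a fell and Nfkbia rose in the Vhl/Hif2a knockout. None of the 9 passed in the triple knockout. Of all tested genes 1.42% were lower and 2.22% higher in the Vhl/Hif1a knockout, 7.01% lower and 7.68% higher in the Vhl/Hif2a knockout, and 0.0388% in either direction in the triple knockout. In the triple knockout 1 of the 9 genes, Il18, had an unadjusted p under 0.05, and DESeq2 called 0 of them. The median log2 fold change of the 9 genes was -0.08 in the Vhl/Hif1a, -0.05 in the Vhl/Hif2a and -0.04 in the triple cross. That of all tested genes lay between -0.01 and 0.00 in the 3 crosses. Knockout and control libraries did not overlap for 5, 3 and 0 of the 9 genes, against 23.8%, 35.1% and 15.3% of all tested genes. The effects were also compared between crosses. Of the 9 genes 1 passed in the Vhl/Hif1a minus the triple effect, where 2.04% of all tested genes passed. None passed in the Vhl/Hif1a minus the Vhl/Hif2a effect, where 2.44% of all genes passed, 2 of the 9 had an unadjusted p under 0.05 and DESeq2 called 1. None passed in the Vhl/Hif2a minus the triple effect, where 7.99% of all genes passed, 3 had an unadjusted p under 0.05 and DESeq2 called 1. Without the 3 control libraries that stood apart, an alternative chosen after seeing the data, 4 of the 9 genes were called in the Vhl/Hif1a knockout, 2 in the Vhl/Hif2a knockout and 0 in the triple knockout, and Nfkbia no longer passed in the Vhl/Hif2a knockout (0.49, edgeR adjusted p = 0.079). In bulk RNA, fewer cells of a kind and less RNA per cell cannot be told apart. The standard error (SE) follows each log2 fold change, and adjusted p-values are from edgeR's quasi-likelihood test over all tested genes with n = 3 libraries per group. Where a call ended with 1 library left out, the log2 fold change and the adjusted p without it follow in parentheses.

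**Figure D1:**
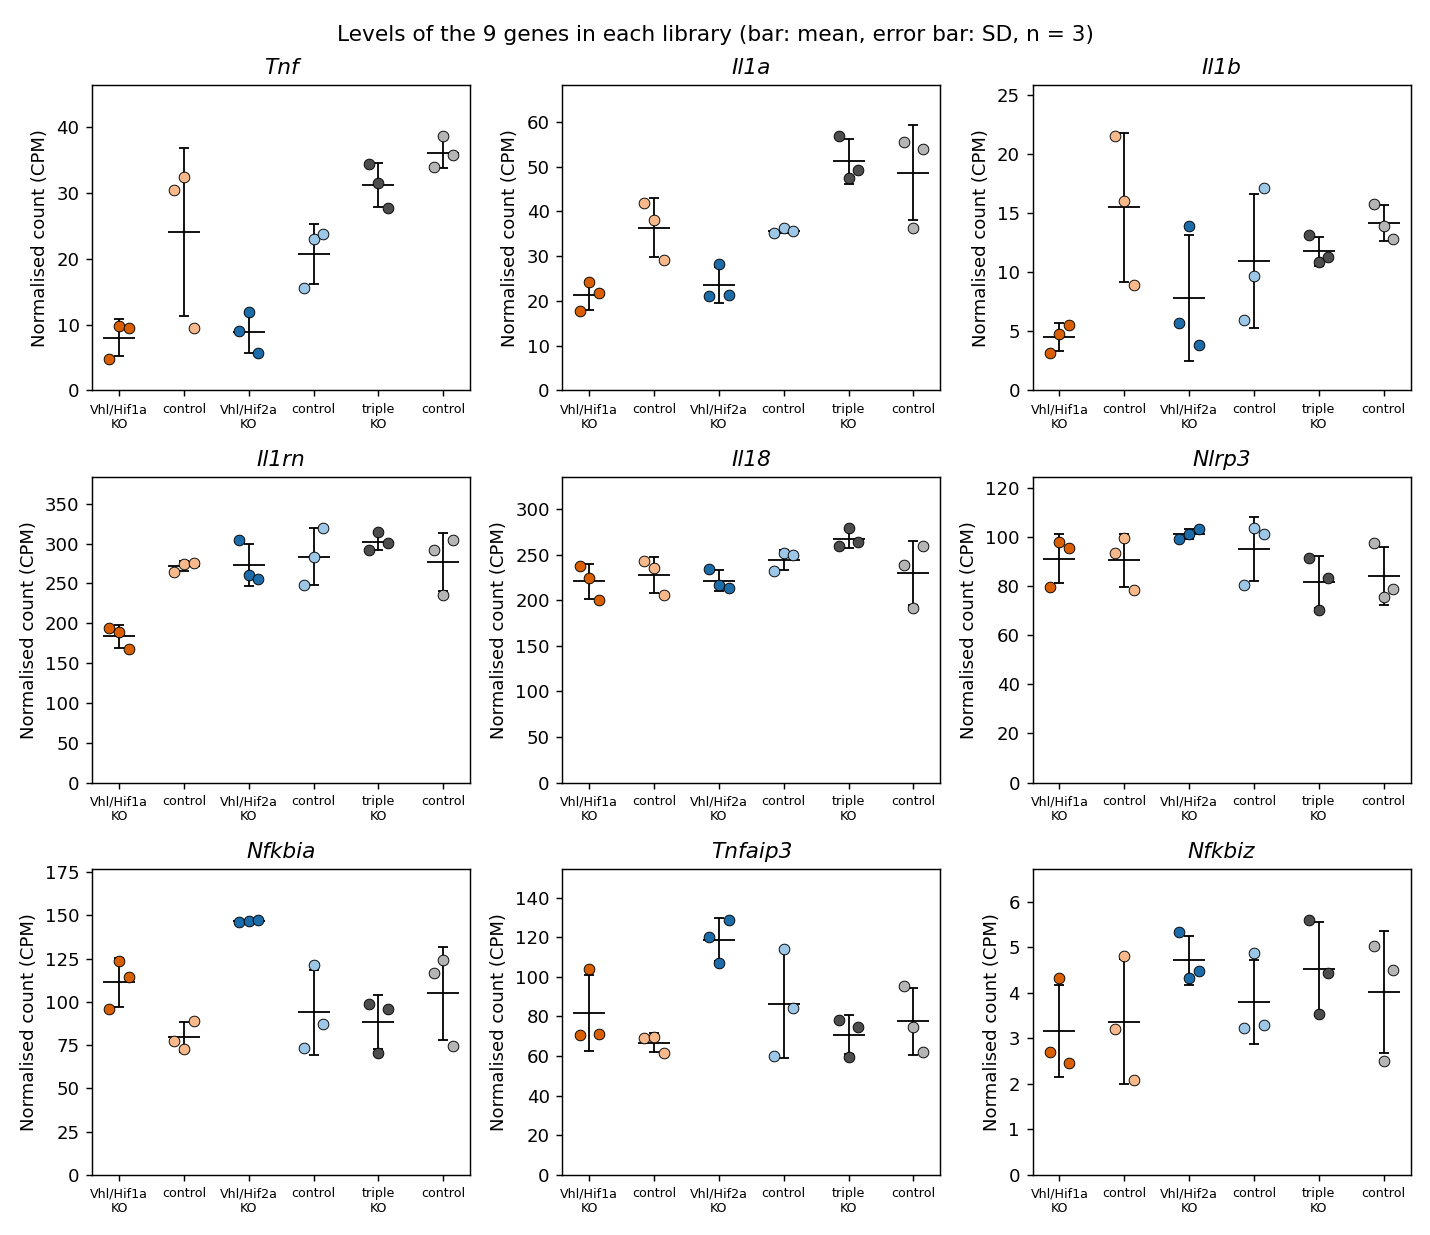
Normalised counts (CPM, linear axis from 0) of the 9 genes in the 18 libraries, with each knockout left of its control; points are libraries, bars are means and error bars SD (n = 3). Tnf and Il1a are lower in the double knockouts than in their controls on average, with 1 Vhl/Hif1a control library at 9.41 CPM of Tnf, inside the range of its knockout, and the triple knockout and its control overlap in all 9 panels.

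**Figure D2:**
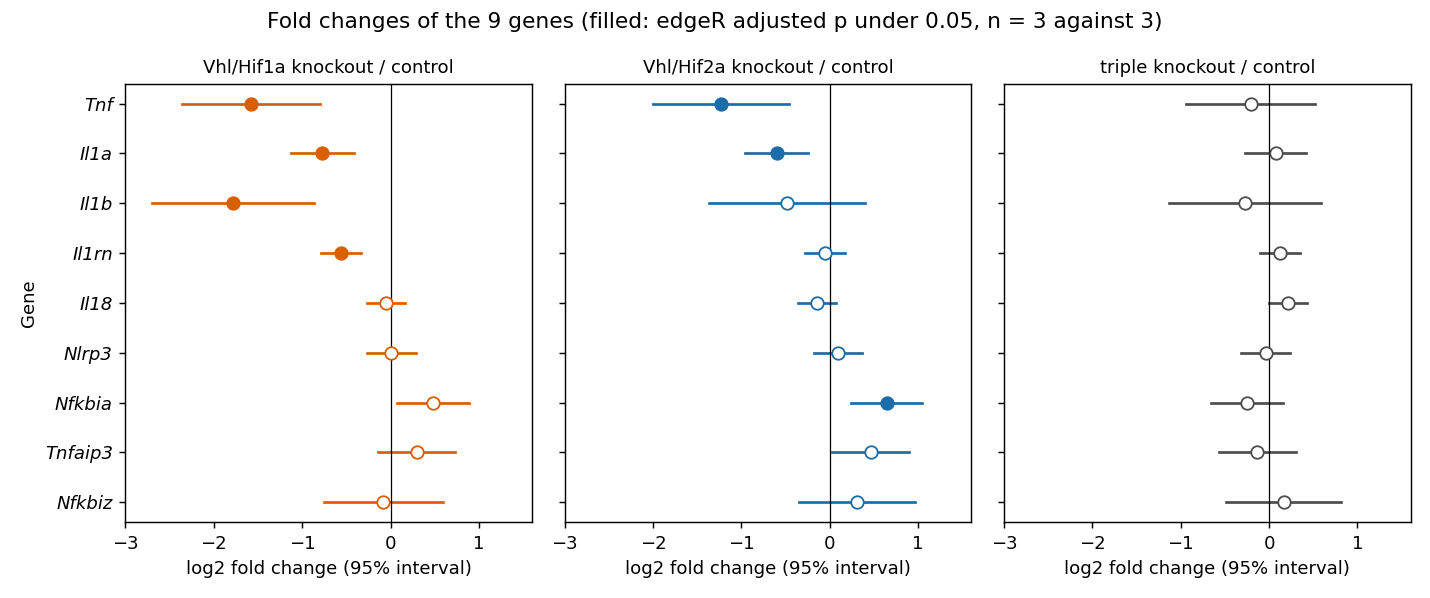
Log2 fold changes of the 9 genes with 95% intervals in each knockout against its control; filled points have an edgeR adjusted p under 0.05. The intervals of Tnf and Il1a lie below 0 in both double knockouts, and in the triple knockout all 9 points are open.

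Tnf (ENSMUSG00000024401, chromosome 17, 35199381 to 35202007, minus strand, GRCm38) encodes tumour necrosis factor, a cytokine that acts through TNFR1 and TNFR2 on nearly all cells. It was at 4.81, 9.76 and 9.54 CPM in the Vhl/Hif1a knockout, against 30.4, 32.4 and 9.41 CPM in its control. The knockout mean was 33.4% of the control mean, a log2 fold change of -1.58 ± 0.37 (edgeR adjusted p = 0.021). Control 3, the library with raised Egln3, lay inside the range of the knockout libraries, and the other controls lay above all of them. Without control 3 the log2 fold change was -1.96 (edgeR adjusted p = 4.9e-04). The edgeR call ended without knockout 1 (-1.31, adjusted p = 0.10), knockout 3 (-1.72, adjusted p = 0.0504), control 1 (-1.37, adjusted p = 0.10) or control 2 (-1.30, adjusted p = 0.13). In a fit of these 6 libraries alone the adjusted p was 0.083.

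Tnf in the Vhl/Hif2a knockout was at 8.97, 11.9 and 5.68 CPM, against 15.5, 23.0 and 23.7 CPM in its control. All knockout libraries lay below all controls. The knockout mean was 42.6% of the control mean, and the log2 fold change was -1.23 ± 0.36 (edgeR adjusted p = 0.030). The edgeR call ended without knockout 1 (-1.24, adjusted p = 0.089), knockout 3 (-0.99, adjusted p = 0.13), control 2 (-1.15, adjusted p = 0.089) or control 3 (-1.12, adjusted p = 0.095). The triple knockout held 34.4, 31.5 and 27.7 CPM, against 34.0, 38.7 and 35.7 CPM in its control, and these groups overlapped (log2 fold change -0.21 ± 0.34, 95% interval -0.94 to 0.52, edgeR adjusted p = 0.76). The Vhl/Hif1a effect minus the Vhl/Hif2a effect was -0.35 ± 0.51 on the log2 scale (edgeR adjusted p = 0.97). The Vhl/Hif1a effect minus the triple effect was -1.37 ± 0.50 (edgeR adjusted p = 0.21), and the Vhl/Hif2a effect minus the triple effect was -1.02 ± 0.50 (edgeR adjusted p = 0.21). None of these differences passed the test. Without Vhl/Hif1a control 3 the Vhl/Hif1a minus triple difference was -1.74 and passed (edgeR adjusted p = 0.022). Without the 3 control libraries that stood apart it was -1.81 (edgeR adjusted p = 0.012), and the Vhl/Hif2a minus triple difference was -1.24 and passed (edgeR adjusted p = 0.043).

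Il1a (ENSMUSG00000027399, chromosome 2, 129299610 to 129309972, minus strand) encodes IL-1α, a cytokine that is active as a precursor and is released from damaged cells. It was at 17.8, 24.2 and 21.8 CPM in the Vhl/Hif1a knockout, against 41.9, 38.1 and 29.1 CPM in its control. These groups did not overlap. The knockout mean was 58.5% of the control mean (log2 fold change -0.77 ± 0.17, edgeR adjusted p = 0.014), and the edgeR call ended without knockout 1 (-0.65, adjusted p = 0.078), control 1 (-0.65, adjusted p = 0.082) or control 2 (-0.74, adjusted p = 0.064). In the Vhl/Hif2a knockout it was at 21.1, 28.1 and 21.4 CPM, against 35.2, 36.2 and 35.5 CPM in its control. All knockout libraries again lay below all controls, at 66.0% of the control mean (log2 fold change -0.60 ± 0.17, edgeR adjusted p = 0.023). That edgeR call ended without knockout 1 (-0.53, adjusted p = 0.11), knockout 3 (-0.53, adjusted p = 0.095), control 1 (-0.61, adjusted p = 0.053), control 2 (-0.59, adjusted p = 0.065) or control 3 (-0.59, adjusted p = 0.058). In the triple cross it was at 56.8, 47.3 and 49.2 CPM in the knockout, against 55.5, 36.4 and 53.9 CPM in its control, with overlap (log2 fold change 0.07 ± 0.17, 95% interval -0.28 to 0.42, edgeR adjusted p = 0.83). On the log2 scale the Vhl/Hif1a effect minus the triple effect was -0.85 ± 0.24 (edgeR adjusted p = 0.084) and the Vhl/Hif2a effect minus the triple effect -0.67 ± 0.24 (edgeR adjusted p = 0.092), and neither difference passed. The Vhl/Hif1a minus triple difference passed in DESeq2 (adjusted p = 0.026), and in edgeR with no filter on low counts (adjusted p = 0.048), without Vhl/Hif1a control 3 (adjusted p = 0.048) and without the 3 control libraries that stood apart (adjusted p = 0.036). The Vhl/Hif1a minus the Vhl/Hif2a effect was -0.17 ± 0.24 (edgeR adjusted p = 0.96). Il1a was the only member whose deposited values had decimals, in 18 of 18 libraries, and how these arose is not given in the sources used here. It overlaps Gm14023 on the opposite strand over 222 exonic bases, and that gene held 224.5 counts over all libraries.

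Il1b (ENSMUSG00000027398, chromosome 2, 129364570 to 129371139, minus strand) encodes IL-1β, the interleukin-1 that inflammasomes process. It was at 3.19, 4.80 and 5.51 CPM in the Vhl/Hif1a knockout, against 21.6, 16.0 and 8.91 CPM in its control. All knockout libraries lay below all controls, at 29.0% of the control mean. The log2 fold change was -1.78 ± 0.43 (edgeR adjusted p = 0.027), and the edgeR call ended without knockout 1 (-1.58, adjusted p = 0.13), knockout 2 (-1.83, adjusted p = 0.094), knockout 3 (-1.95, adjusted p = 0.064), control 1 (-1.46, adjusted p = 0.14) or control 2 (-1.75, adjusted p = 0.087). The Vhl/Hif2a cross held 5.72, 13.9 and 3.86 CPM in the knockout, against 5.98, 9.69 and 17.1 CPM in its control. Both groups spread widely and overlapped, with knockout 2 above 2 of the 3 controls (log2 fold change -0.48 ± 0.42, 95% interval -1.37 to 0.40, edgeR adjusted p = 0.53). The triple cross held 13.1, 10.9 and 11.3 CPM in the knockout, against 15.8, 13.9 and 12.8 CPM in its control (log2 fold change -0.27 ± 0.41, 95% interval -1.13 to 0.59, edgeR adjusted p = 0.73). The call in the Vhl/Hif1a knockout does not show that the crosses differ: its effect minus the Vhl/Hif2a effect was -1.30 ± 0.60 (edgeR adjusted p = 0.45) and its effect minus the triple effect -1.51 ± 0.59 (edgeR adjusted p = 0.24). The antisense gene Il1bos overlaps Il1b over 25 exonic bases and held 59 counts in all 18 libraries together.

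Of the 12 alveolar macrophage markers, Fabp4 rose and Siglecf fell in the Vhl/Hif1a knockout. In the Vhl/Hif2a knockout Marco, Fabp4, Chil3 and Itgax rose and Siglecf and Krt79 fell. In the triple knockout Itgax rose. Markers of other cells also differed between knockouts and controls. The 10 neutrophil markers summed to 74.0 to 82.5 CPM in the Vhl/Hif1a knockout, against 149 to 165 CPM in its control. Of the 6 tested, S100a8 rose and Csf3r, Cxcr2 and Mmp8 fell, with Ly6g at 0 as given above. The 11 monocyte and interstitial macrophage markers summed to 36.9 to 49.9 CPM in that knockout, against 22.7 to 28.8 CPM in its control, with F13a1 and Itgam higher among 8 tested. In the Vhl/Hif2a cross the neutrophil sums were 126 to 151 CPM in the knockout and 122 to 193 CPM in its control. There too S100a8 rose and Csf3r and Cxcr2 fell in the knockout. The monocyte and interstitial macrophage sums there were 60.1 to 86.3 CPM in the knockout and 17.2 to 31.1 CPM in its control. Among these markers Ccr2 and Itgam were higher and C1qb lower. In the Vhl/Hif2a knockout the 10 dendritic cell markers summed to 12.01 to 16.6 CPM, against 24.4 to 58.3 CPM in its control, with 6 of 10 lower (Flt3, Zbtb46, Ccr7, Fscn1, Itgae and Kit). The 10 lung epithelium, endothelium and fibroblast markers summed to 26.8 to 46.1 CPM in the Vhl/Hif1a knockout, against 68.0 to 87.0 CPM in its control, and Epcam fell. Epcam made up most of each sum: its median over the 18 libraries was 186 CPM, against 5.47 CPM for Scgb1a1, the next highest. The Vhl/Hif2a sums of this list were 293 to 349 CPM in the knockout and 256 to 402 CPM in its control. The dendritic cell sums were 19.1 to 29.0 CPM in the Vhl/Hif1a knockout and 26.5 to 37.3 CPM in its control. In the triple cross, where none of the 9 genes passed, the neutrophil sums were 146 to 163 CPM in the knockout and 128 to 136 CPM in its control, and the monocyte and interstitial macrophage sums 28.9 to 31.4 CPM in the knockout and 20.1 to 25.9 CPM in its control, with Itgam higher. The lung epithelium, endothelium and fibroblast sums there were 166 to 187 CPM in the knockout and 208 to 247 CPM in its control, with none of that list called. The part of these cells in the cytokine levels was not tested.

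Il1rn (ENSMUSG00000026981, chromosome 2, 24336853 to 24351494, plus strand) encodes the IL-1 receptor antagonist, which occupies the receptor of IL-1α and IL-1β. It was at 194, 189 and 168 CPM in the Vhl/Hif1a knockout, against 265, 275 and 275 CPM in its control. The groups did not overlap, and the knockout mean was 67.6% of the control mean (log2 fold change -0.56 ± 0.11, edgeR adjusted p = 0.0043). Of the 4 falls in this cross it was the one whose call held in all 6 fits with 1 library left out, at -0.60 to -0.50 and edgeR adjusted p = 0.011 to 0.034. Its Vhl/Hif2a levels were 304, 260.3 and 255 CPM in the knockout, against 248, 284 and 319.6 CPM in its control, with overlap (log2 fold change -0.05 ± 0.11, 95% interval -0.28 to 0.17, edgeR adjusted p = 0.82). In the triple cross they were 293, 314 and 301 CPM in the knockout, against 292, 236 and 304 CPM in its control, also with overlap (log2 fold change 0.12 ± 0.11, 95% interval -0.10 to 0.35, edgeR adjusted p = 0.54). The Vhl/Hif1a effect minus the triple effect was -0.69 ± 0.15 on the log2 scale (edgeR adjusted p = 0.021). It was the only difference between effects that passed among the 9 genes in the 3 contrasts of effects. That edgeR call ended without Vhl/Hif1a knockout 3 (-0.63, adjusted p = 0.077), triple knockout 2 (-0.66, adjusted p = 0.064), triple knockout 3 (-0.69, adjusted p = 0.058), Vhl/Hif1a control 2 (-0.67, adjusted p = 0.071) or Vhl/Hif1a control 3 (-0.67, adjusted p = 0.062). The Vhl/Hif1a minus the Vhl/Hif2a effect was -0.51 ± 0.15 (edgeR adjusted p = 0.10), and DESeq2 gave an adjusted p of 0.049 for it.

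The antagonist and the cytokine it blocks were also set against each other within each library, which removes library scaling. With 0.5 CPM added to both, the ratio of Il1rn to Il1b CPM was 28.0 to 52.7 in the Vhl/Hif1a knockout, against 12.01 to 29.3 in its control. The log2 ratio averaged 5.23 ± 0.46 in that knockout and 4.17 ± 0.65 in its control (SD, n = 3 each), a difference of 1.06 (two-sided exact permutation p = 0.20). In the Vhl/Hif2a knockout the ratio was 18.1 to 58.7, against 18.1 to 38.4 in its control, a log2 difference of 0.47 (exact permutation p = 0.60). In the triple knockout it was 21.5 to 27.6, against 16.4 to 22.9 in its control, a log2 difference of 0.39 (exact permutation p = 0.20). The ratio was higher on average in each knockout and the groups overlapped in every cross. The smallest p that 3 libraries against 3 allow is 0.1, and no adjustment was made over these 3 tests.

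Il18 and Nlrp3, the precursor cytokine and the sensor of the same inflammasome, did not pass in any knockout. Il18 (ENSMUSG00000039217, chromosome 9, 50554827 to 50581840, plus strand) was at 199.9 to 238 CPM in the Vhl/Hif1a knockout against 206 to 243 in its control, a log2 fold change of -0.05 ± 0.10 with a 95% interval of -0.26 to 0.17 (edgeR adjusted p = 0.92). It was at 213 to 235 CPM in the Vhl/Hif2a knockout against 232 to 251 in its control (-0.14 ± 0.10, interval -0.36 to 0.07, edgeR adjusted p = 0.42). In the triple knockout it was at 259 to 279 CPM against 192 to 259.9 in its control (0.22 ± 0.10, interval 0.00 to 0.43, edgeR adjusted p = 0.43). Its highest library held 1.46 times the lowest, the narrowest range of the 9 genes, against 8.04 times for Tnf. Nlrp3 (ENSMUSG00000032691, chromosome 11, 59541568 to 59566956, plus strand) was at 79.6 to 97.9 CPM in the Vhl/Hif1a knockout against 78.5 to 99.5 in its control (0.01 ± 0.13, interval -0.26 to 0.28). It was at 98.9 to 103 CPM in the Vhl/Hif2a knockout against 80.2 to 104 in its control (0.09 ± 0.13, interval -0.18 to 0.36). The triple knockout held 70.4 to 91.3 CPM against 75.5 to 97.4 in its control (-0.04 ± 0.13, interval -0.31 to 0.23). These intervals leave room for Nlrp3 changes between -0.31 and 0.36 on the log2 scale.

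Among the feedback genes, Nfkbia (ENSMUSG00000021025, chromosome 12, 55489410 to 55492647, minus strand) was at 146, 146 and 147 CPM in the Vhl/Hif2a knockout, against 73.5, 121 and 87.0 CPM in its control. The 3 knockout libraries lay within 1 CPM of each other and above every control, at 156% of the control mean. The log2 fold change was 0.64 ± 0.19 (edgeR adjusted p = 0.031). The edgeR call ended without knockout 1 (0.64, adjusted p = 0.082), knockout 2 (0.64, adjusted p = 0.066), knockout 3 (0.64, adjusted p = 0.074), control 1 (0.49, adjusted p = 0.14) or control 3 (0.60, adjusted p = 0.10), and without control 2 it was 0.87 (adjusted p = 0.0078). In the Vhl/Hif1a knockout it was at 95.9, 124 and 114 CPM, against 77.4, 72.6 and 89.1 CPM in its control. Those groups did not overlap, and the gene did not pass (log2 fold change 0.48 ± 0.19, 95% interval 0.08 to 0.89, edgeR adjusted p = 0.25). In a fit of these 6 libraries alone the adjusted p was 0.042. In the triple cross it was at 98.9, 70.5 and 95.9 CPM in the knockout, against 116, 124 and 74.4 CPM in its control, with overlap (log2 fold change -0.25 ± 0.19, 95% interval -0.65 to 0.15, edgeR adjusted p = 0.50). The Vhl/Hif2a effect minus the triple effect was 0.89 ± 0.27 (edgeR adjusted p = 0.053), which did not pass. It passed in DESeq2 (adjusted p = 0.018), with no filter on low counts (0.021), without Vhl/Hif2a control 2 (0.015) and without triple control 3 (0.0088). The Vhl/Hif1a minus the triple effect was 0.73 (edgeR adjusted p = 0.21) and passed without triple control 3 (0.93, edgeR adjusted p = 0.047). The Vhl/Hif1a minus the Vhl/Hif2a effect was -0.16 ± 0.27 (edgeR adjusted p = 0.98).

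Tnfaip3 (ENSMUSG00000019850, chromosome 10, 19000910 to 19015657, minus strand) was at 120.3, 107 and 129 CPM in the Vhl/Hif2a knockout, against 60.1, 114 and 84.3 CPM in its control. Control 2 lay among the knockout libraries and the other controls lay below them. The log2 fold change was 0.46 ± 0.20 (95% interval 0.03 to 0.89, edgeR adjusted p = 0.16), and without control 2 it was 0.72 and passed (edgeR adjusted p = 0.033). In the Vhl/Hif1a knockout it was at 70.5, 104 and 71.2 CPM, against 69.3, 69.6 and 61.3 CPM in its control. Here knockout 2 was high and the other knockouts lay within 2 CPM of the highest control (log2 fold change 0.30 ± 0.21, 95% interval -0.14 to 0.73, edgeR adjusted p = 0.63). In the triple cross it was at 78.3, 59.5 and 74.7 CPM in the knockout, against 95.6, 74.9 and 62.2 CPM in its control (log2 fold change -0.13 ± 0.20, 95% interval -0.56 to 0.30, edgeR adjusted p = 0.74). Nfkbiz (ENSMUSG00000035356, chromosome 16, 55811375 to 55838899, minus strand) had the lowest mean level per kb of exon of the 9 genes, and was at 2.08 to 5.59 CPM, which is 54 to 163 counts a library. Its 95% intervals were -0.76 to 0.59 in the Vhl/Hif1a, -0.35 to 0.96 in the Vhl/Hif2a and -0.49 to 0.82 in the triple cross. No change of this gene was detectable at that depth and spread.

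Genes that respond quickly to the handling of cells were also higher in some Vhl/Hif2a knockout libraries. The 22 handling and immediate early genes, among them Fos, Jun and Egr1, summed to 2555 to 4165 CPM in the Vhl/Hif2a knockout, against 1839 to 2915 CPM in its control. In that knockout 4 of 21 tested rose (Fosl2, Ier3, Klf2 and Dnajb1), beside 7.68% of all tested genes. Fos, Jun and Egr1 did not pass there. In the Vhl/Hif1a cross the sums were 2105 to 2856 CPM in the knockout and 2230 to 2980 CPM in its control, and in the triple cross 2747 to 2999 CPM in the knockout and 2940 to 4063 CPM in its control. Of the 21 tested, only Ier3 passed in the Vhl/Hif1a knockout, where it also rose, and none passed in the triple knockout. Within the Vhl/Hif2a knockout, library 2 had the lowest sum, 2555 CPM, and the lowest Tnfaip3, 107 CPM, while its Nfkbia, 146 CPM, was within 1 CPM of the other knockout libraries. Within the Vhl/Hif2a control the sums of 1839, 2915 and 2638 CPM had the same order as Nfkbia and as Tnfaip3. The triple control sums of 3175, 4063 and 2940 CPM had the same order as Nfkbia and not as Tnfaip3. The Vhl/Hif1a control sums of 2778, 2980 and 2230 CPM had the same order as Tnfaip3 and the reverse order of Nfkbia. Within the Vhl/Hif1a, Vhl/Hif2a and triple knockouts, neither gene had the order of the sums. After subtracting group means, Ier3, a gene of this list, was the second closest to Tnfaip3 (r = 0.86 over 18 libraries). This ranking covered genes with a mean of at least 5 CPM, predicted models apart. The part of handling in the feedback genes was not tested.

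**Figure D3:**
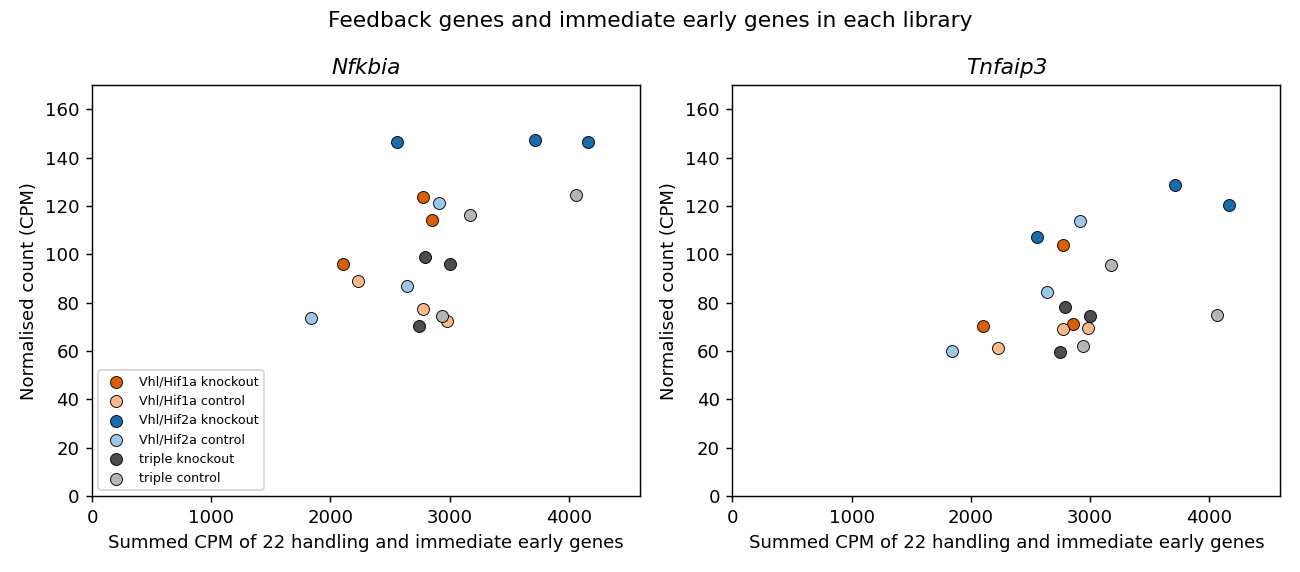
Nfkbia (left) and Tnfaip3 (right) in CPM against the summed CPM of 22 handling and immediate early genes; each point is 1 library, coloured by group. The 3 Vhl/Hif2a knockout libraries lie highest for Nfkbia, at 146 to 147 CPM, over sums that run from 2555 to 4165 CPM.

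Across the 6 groups, the means of Tnf, Il1a and Il1b were lowest in the double knockouts, and those of Nfkbia and Tnfaip3 were highest in the Vhl/Hif2a knockout. From low to high, Tnf averaged 8.03 ± 2.80 CPM in the Vhl/Hif1a knockout, 8.83 ± 3.09 CPM in the Vhl/Hif2a knockout, 20.7 ± 4.52 CPM in the Vhl/Hif2a control, 24.1 ± 12.7 CPM in the Vhl/Hif1a control, 31.2 ± 3.35 CPM in the triple knockout and 36.1 ± 2.37 CPM in the triple control (SD, n = 3 each). The 2 double knockouts lay within 1 SD of each other, as did their 2 controls by the standard deviation of either, and the triple knockout and its control overlapped. Il1a averaged 21.3 ± 3.21 CPM in the Vhl/Hif1a knockout, 23.5 ± 3.97 CPM in the Vhl/Hif2a knockout, 35.7 ± 0.524 CPM in the Vhl/Hif2a control, 36.4 ± 6.58 CPM in the Vhl/Hif1a control, 48.6 ± 10.6 CPM in the triple control and 51.1 ± 5.04 CPM in the triple knockout, with the 2 double knockouts, their 2 controls and the 2 triple groups each within 1 SD of the wider of the pair. Nfkbia averaged 79.7 ± 8.53 CPM in the Vhl/Hif1a control, 88.4 ± 15.6 CPM in the triple knockout, 93.9 ± 24.5 CPM in the Vhl/Hif2a control, 105 ± 26.9 CPM in the triple control, 111 ± 14.1 CPM in the Vhl/Hif1a knockout and 147 ± 0.471 CPM in the Vhl/Hif2a knockout, where each neighbour lay within 1 SD, by the wider of the pair, of the next except at the top. Tests between controls of different crosses called none of the 9 genes in any of the 3 pairs, where 0.341%, 5.4% and 3.42% of all genes were called. Of the 9 genes, 0, 1 and 2 had an unadjusted p under 0.05 and DESeq2 called 0 in each pair. The log2 fold change of the Vhl/Hif2a control against the triple control was -0.45 ± 0.17 for Il1a (edgeR adjusted p = 0.14) and -0.80 ± 0.35 for Tnf (edgeR adjusted p = 0.20). Levels between genes were compared per kb of exon (union of GENCODE M21 exons). Over all 18 libraries the mean level was 228 CPM per kb for Il18, 64.7 for Nfkbia, 47.9 for Il1rn, 22.3 for Nlrp3, 18.3 for Il1a, 13.1 for Tnf, 11.6 for Tnfaip3, 5.66 for Il1b and 0.782 for Nfkbiz.

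Pearson correlations of log2 CPM over the 18 libraries are given here as a description of these libraries. Tnf was correlated with Il1a at r = 0.92 and with Il1b at r = 0.86. Nfkbia was correlated with Tnfaip3 at r = 0.86, and Tnfaip3 with Nlrp3 at r = 0.77. Il18 was at 0.45 with Tnf, 0.58 with Il1a and 0.29 with Il1b. Nfkbiz was at 0.23 with Nfkbia and 0.55 with Tnfaip3. Between cytokine and feedback genes the values were -0.46 for Tnf with Nfkbia and -0.37 for Il1a with Tnfaip3. Libraries of a group share its genotype, and some of each value is a difference between groups. After each group's mean was subtracted, Tnf with Il1b was at 0.80, Tnf with Il1a at 0.63, Nfkbia with Tnfaip3 at 0.76 and Tnfaip3 with Nlrp3 at 0.78, while Tnf with Nfkbia was at 0.06 and Nfkbia with Nfkbiz at 0.08. Tnf with Nlrp3 was at -0.20 over the libraries and 0.57 within groups. Il1rn with Il18 was at 0.77 within groups. Triple control 2, which stood apart from its replicates, was lowest of its group in both, at 236 CPM of Il1rn and 192 CPM of Il18. A value without that library was not computed.

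**Figure D4:**
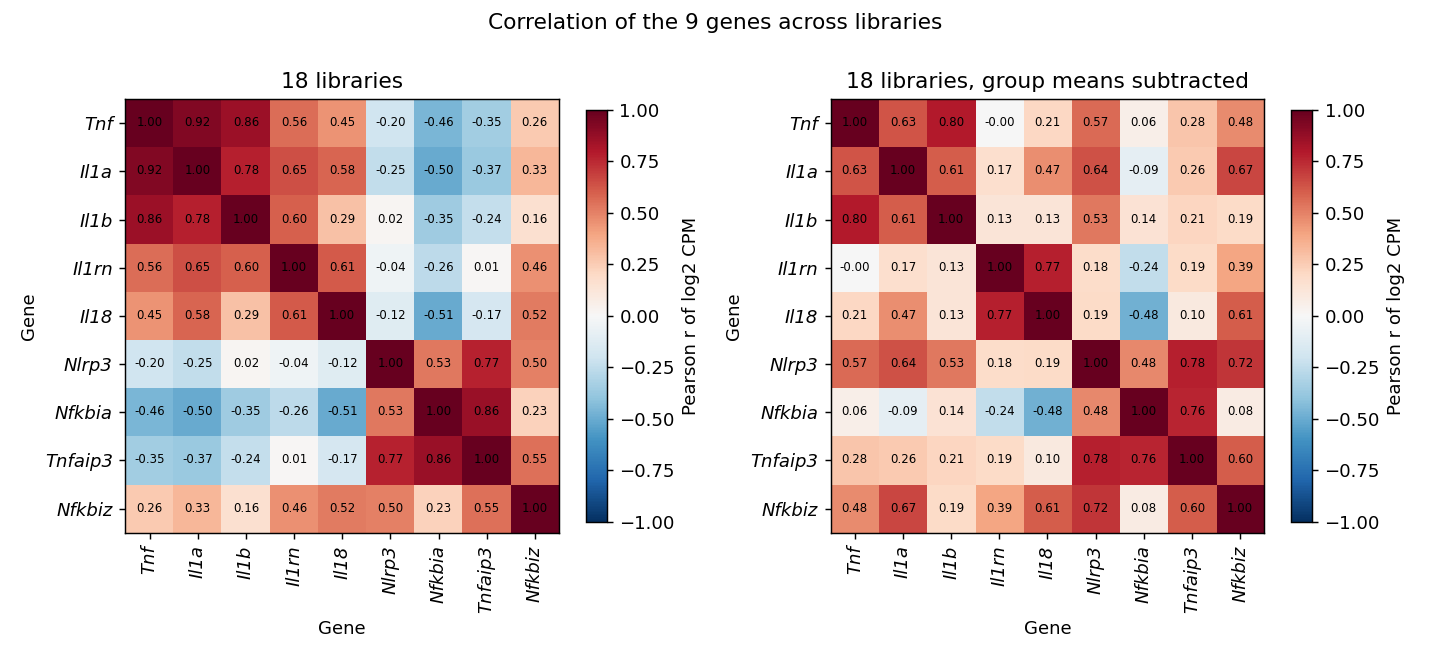
Pearson correlation of log2 CPM between the 9 genes over 18 libraries (left) and after subtracting each group's mean (right); red is positive and blue negative, and each cell prints its r. In both panels r is at least 0.607 between Tnf, Il1a and Il1b, and in both it is at least 0.48 between Nfkbia, Tnfaip3 and Nlrp3.

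Of all genes with a mean of at least 5 CPM, those whose pattern over the 18 libraries was closest to Tnf included Il1a (0.92) and Icam1 (0.91), by Pearson r. The 3 closest to Il1b were Pilra (0.88), Tnf (0.86) and Icam1 (0.81), and those to Il1a were Clec4n (0.94), Mapk6 (0.93) and Bub1b (0.93). For Nfkbia they were Tnfaip3 (0.86), Fbxl2 (0.84) and Hs6st1 (0.83), and for Tnfaip3 Noct (0.88), Nfkbia (0.86) and Dusp1 (0.83). Icam1, an adhesion molecule gene induced by cytokines, was thus near both Tnf and Il1b. For Il1rn they were Acsl5 (0.89), Ece1 (0.89) and Cd44 (0.88), for Il18 Evi2a (0.92), Ppp3cb (0.92) and Rbm7 (0.91), for Nlrp3 Rpl10-ps3 (0.77), Ehbp1 (0.77) and Tnfaip3 (0.77) and for Nfkbiz Rgs1 (0.82), Tgds (0.80) and Suco (0.79). After subtracting group means, the closest to Il1b was Tlr2 (0.83), a receptor for bacterial lipoproteins, and 1 of the 3 closest to Nlrp3 was the chemokine Cxcl2 (0.84).

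The other genes of the pathway, 69 receptors, kinases, NF-κB subunits, inhibitors, inflammasome parts and products, mostly did not pass. Of the 63 tested, 2 rose and none fell in the Vhl/Hif1a knockout, 2 rose and 6 fell in the Vhl/Hif2a knockout, and none passed in the triple knockout, where 8 had an unadjusted p under 0.05 and DESeq2 called 0. The shares of all genes called in each cross stand above. Their median log2 fold changes were -0.10, -0.10 and -0.07 in these 3 crosses. The products Il6, Il10, Il23a, Ptgs2, Nos2 and Csf3 were not tested, with at most 4 counts in any library. Of 17 receptors and adaptors, 1 passed: Il18rap, the signalling chain of the IL-18 receptor, averaged 4.64 ± 0.513 CPM in the knockout and 2.56 ± 0.296 CPM in its control in the Vhl/Hif1a cross (0.86 ± 0.22, edgeR adjusted p = 0.037). Its call ended with each of the 6 libraries left out, at an edgeR adjusted p of 0.079 to 0.16, and also with no filter on low counts (0.055) and without the 3 control libraries that stood apart (0.057). Of 10 kinases and NF-κB subunits, Nfkb1, which encodes the p105 precursor of p50, fell in the Vhl/Hif2a knockout, at 144 ± 5.32 CPM in the knockout and 177 ± 7.49 CPM in its control (-0.30 ± 0.07, edgeR adjusted p = 0.0069).

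Of 19 further inhibitors and feedback genes, 2 fell in the Vhl/Hif2a knockout. Traf1, an adaptor of TNF receptors and an NF-κB target, averaged 1.05 ± 0.449 CPM in the knockout and 4.30 ± 1.99 CPM in its control (-2.03 ± 0.39, edgeR adjusted p = 0.0014). It rested on 19 to 49 counts a library in the knockout, against 44 to 132 in its control. Control libraries 1, 2 and 3 held 5.78, 5.09 and 2.04 CPM of Traf1, beside dendritic cell marker sums of 58.3, 55.0 and 24.4 CPM. The knockout libraries held 0.629, 1.52 and 0.986 CPM, beside sums of 12.01, 12.7 and 16.6 CPM. The part of dendritic cells in Traf1 was not tested. Tnfaip2, a gene first named for its induction by TNF, averaged 613 ± 89.5 CPM in the knockout and 841 ± 109.8 CPM in its control (-0.46 ± 0.13, edgeR adjusted p = 0.026), and its edgeR call ended without knockout 1 (-0.41, adjusted p = 0.11), knockout 3 (-0.38, adjusted p = 0.12), control 1 (-0.36, adjusted p = 0.12) or control 3 (-0.44, adjusted p = 0.069). Of 13 genes of the inflammasome and release, Txnip, a thioredoxin-binding protein that can bind NLRP3, rose in both double knockouts. It averaged 1507 ± 63.2 CPM in the knockout and 1124 ± 187 CPM in its control for Vhl/Hif1a (0.42 ± 0.11, edgeR adjusted p = 0.033) and 1425 ± 109.8 CPM in the knockout and 1003 ± 72.6 CPM in its control for Vhl/Hif2a (0.51 ± 0.11, edgeR adjusted p = 0.0033). In the Vhl/Hif1a cross the Txnip call ended without knockout 1 (0.40, adjusted p = 0.12), knockout 2 (0.42, adjusted p = 0.10), knockout 3 (0.45, adjusted p = 0.066), control 1 (0.32, adjusted p = 0.17) or control 2 (0.41, adjusted p = 0.15), and in an edgeR fit of those 6 libraries alone (adjusted p = 0.073). The channel gene Panx1 fell in the Vhl/Hif2a knockout, at 10.4 ± 0.534 CPM in the knockout and 15.8 ± 0.680 CPM in its control (-0.61 ± 0.12, edgeR adjusted p = 0.0015).

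Of 4 other inflammatory products tested, 3 passed in the Vhl/Hif2a knockout. Il12b, a subunit of IL-12 and IL-23, fell and rested on 5 to 15 counts a library in the knockout, against 20 to 61 in its control. It averaged 0.267 ± 0.158 CPM in the knockout and 1.90 ± 0.837 CPM in its control (-2.80 ± 0.46, edgeR adjusted p = 4.7e-04). Csf1, the macrophage growth factor, also fell and averaged 0.810 ± 0.1001 CPM in the knockout and 1.54 ± 0.364 CPM in its control (-0.93 ± 0.28, edgeR adjusted p = 0.034), and its edgeR call ended without knockout 1 (-0.83, adjusted p = 0.14), knockout 2 (-0.98, adjusted p = 0.063), knockout 3 (-0.98, adjusted p = 0.073), control 1 (-0.95, adjusted p = 0.067) or control 2 (-0.72, adjusted p = 0.17). The Csf1 call also ended with no filter on low counts (edgeR adjusted p = 0.099), in a fit of these 6 libraries alone (edgeR adjusted p = 0.085) and without the 3 control libraries that stood apart (edgeR adjusted p = 0.060). Tnfsf9, the ligand of the costimulatory receptor Tnfrsf9, rose there and averaged 4.96 ± 0.883 CPM in the knockout and 0.193 ± 0.0878 CPM in its control (4.65 ± 0.58, edgeR adjusted p = 2.6e-05), on 133 to 178 counts a library in the knockout, against 2 to 6 in its control. Il12b is also made by dendritic cells, whose markers were lower in that knockout as given above, and their part was not tested.

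**Figure D5:**
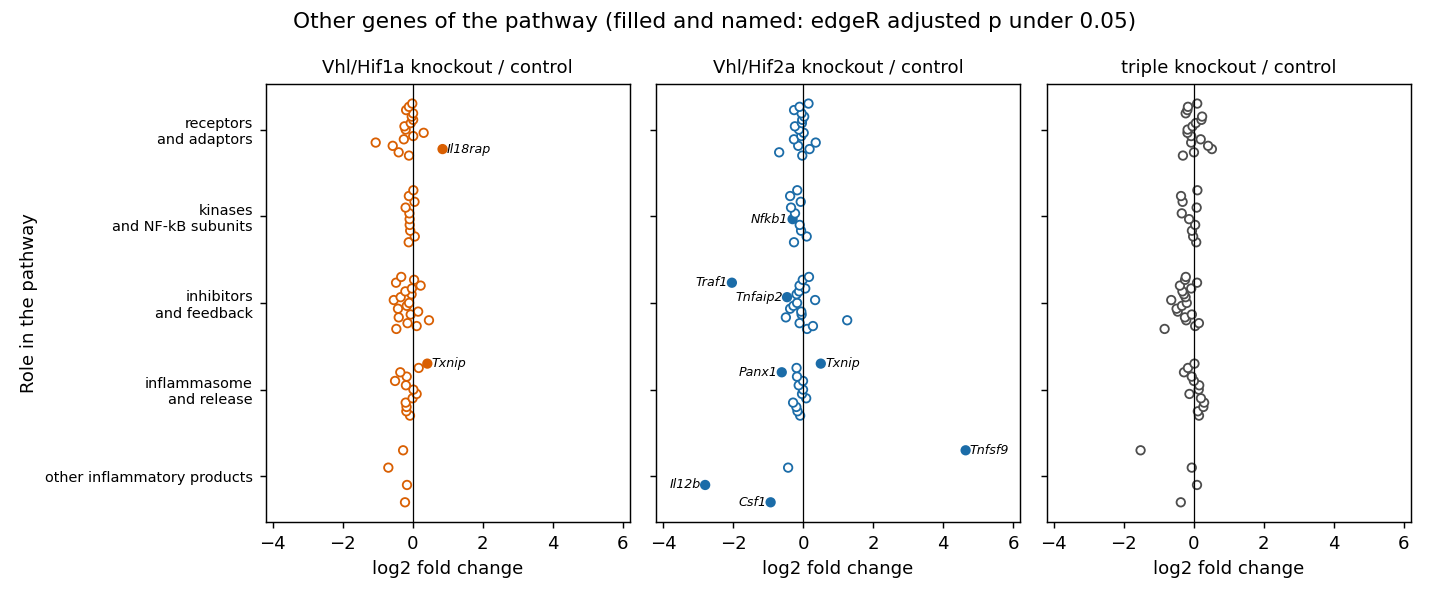
Log2 fold changes of the 63 tested genes of the pathway other than the 9 members, grouped by role from top to bottom, in each knockout against its control; filled and named points have an edgeR adjusted p under 0.05. The Vhl/Hif1a panel has 2 named genes, the Vhl/Hif2a panel 8 and the triple panel none.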

How the data were processed

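The strand setting, annotation and counting tool behind the values were not given in the sources at hand. The authors deposited estimated counts per gene and library, and the submitters' processing notes name FastQC, cutadapt, STAR and GRCm38. Of these values 89.3% were whole. They were rounded to whole numbers. Genes kept by filterByExpr were scaled by TMM and fitted over all 18 libraries with 6 group terms in edgeR 4.0.16 (limma 3.58.1, R 4.3.3). Each contrast used the quasi-likelihood test, with Benjamini-Hochberg adjustment over the tested genes and a threshold of 0.05. An SE is the size of the log2 fold change divided by the square root of F. Values are normalised CPM, and the Il1rn to Il1b ratio used an exact permutation test. DESeq2 1.42.0, RLE scaling, no filter, a replicate block, fits of 6 libraries and fits with 1 library left out were alternatives. The script was tested on simulated data. The 9 genes, the pathway list and the marker lists were chosen with earlier results of these data known. Pathway genes were named if called in a knockout, and likeness named the 3 closest genes, predicted models apart, except for 1 gene near Tnf that is not reported here. Totals of 19230452 to 34015320 counts set the precision. The errors given hold library spread and counting error, and PCR error was not estimated apart from these.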

Additional observations from a re-analysis of the deposited data

Results flagged for a closer look

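The fall of Il1rn in the Vhl/Hif1a knockout differed from its effect in the triple knockout, by the test of the difference itself. Il1rn, the gene of the IL-1 receptor antagonist, had a log2 fold change of -0.56 ± 0.11 in the Vhl/Hif1a and 0.12 ± 0.11 in the triple knockout, a difference of -0.69 ± 0.15 (edgeR adjusted p = 0.021). All 3 Vhl/Hif1a knockout libraries lay below all their controls, and the triple knockout libraries overlapped theirs, at 293, 314 and 301 CPM against 292, 236 and 304 CPM in the triple control. With 1 library left out the difference was -0.76 to -0.59 and the edgeR adjusted p 0.016 to 0.077, and 5 of 12 such fits ended the call. The crosses share no library and the difference between crosses cannot be told apart from the genotype of each.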

How the results depend on the processing

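With 3 libraries per group most calls were near the threshold, and the ones that ended with 1 library left out are named beside each gene above. The fall of Il1rn in the Vhl/Hif1a knockout held in all 12 other settings in which it was fitted, at an adjusted p of 4.3e-05 to 0.043 by edgeR or DESeq2. RLE scaling moved no count of members or pathway genes called by over 1.5 times. No pairing by replicate number was seen: the correlation of same-numbered libraries' deviations from their group means was -0.22 to 0.20 over 9 pairs. Knockout and control libraries with different numbers were not compared, so this check cannot exclude a pairing. With the replicate block 2 members were called in the Vhl/Hif1a knockout, 1 in the Vhl/Hif2a knockout and 0 in the Vhl/Hif1a minus triple effect, and 0 pathway genes in the Vhl/Hif1a knockout. Under the block Tnf was -1.47 (adjusted p = 0.11) in the Vhl/Hif1a and -1.26 (adjusted p = 0.066) in the Vhl/Hif2a knockout, Il1b -1.72 (adjusted p = 0.10) in the Vhl/Hif1a knockout and Nfkbia 0.67 (adjusted p = 0.055) in the Vhl/Hif2a knockout, by edgeR. The block also ended the calls of Il1rn in the Vhl/Hif1a minus triple effect (-0.70, edgeR adjusted p = 0.11), Il18rap (adjusted p = 0.077) and Txnip (adjusted p = 0.058) in the Vhl/Hif1a knockout, and Tnfaip2 (adjusted p = 0.076) and Csf1 (adjusted p = 0.084) in the Vhl/Hif2a knockout. With no filter on low counts, 1 pathway gene was called in the Vhl/Hif1a knockout, and 2 and 1 members in the Vhl/Hif1a and Vhl/Hif2a minus triple effects. DESeq2 called 1 member in the Vhl/Hif1a minus Vhl/Hif2a effect, 2 in the Vhl/Hif1a minus triple effect and 1 in the Vhl/Hif2a minus triple effect. Leaving out the 3 control libraries that stood apart was chosen after seeing the data. It gave 5 pathway genes in the Vhl/Hif1a knockout, 3 members in the Vhl/Hif1a minus triple effect, 1 in the Vhl/Hif2a minus triple effect and 1 in the Vhl/Hif2a against the triple control. It turned the sign of Nlrp3 in the Vhl/Hif1a (-0.084) and Vhl/Hif2a (-0.018) knockouts, Il1a (-0.097) and Nfkbiz (-0.081) in the triple knockout, Nfkbia in the Vhl/Hif1a minus Vhl/Hif2a effect (0.075) and Nfkbia in the Vhl/Hif2a against the triple control (0.12), none of which was called. With 1 library left out, log2 values that turned sign ran -0.11 to 0.019 for Il18 in the Vhl/Hif1a knockout, -0.37 to 0.27 for Nfkbiz in the Vhl/Hif1a knockout, -0.075 to 0.10 for Nlrp3 in the Vhl/Hif1a knockout, -1.19 to 0.00088 for Il1b in the Vhl/Hif2a knockout, -0.14 to 0.048 for Il1rn in the Vhl/Hif2a knockout, -0.018 to 0.16 for Nlrp3 in the Vhl/Hif2a knockout, -0.096 to 0.18 for Il1a in the triple knockout, -0.081 to 0.36 for Nfkbiz in the triple knockout, -0.27 to 0.047 for Tnfaip3 in the triple knockout, -0.13 to 0.082 for Nlrp3 in the triple knockout, -0.42 to 0.035 for Tnfaip3 in the Vhl/Hif1a minus Vhl/Hif2a effect, -0.92 to 0.28 for Il1b in the Vhl/Hif2a minus triple effect, -0.063 to 0.59 for Tnf in the Vhl/Hif1a against the Vhl/Hif2a control and -0.087 to 0.16 for Il1a in the Vhl/Hif1a against the Vhl/Hif2a control, and none of these was called with all libraries. Members called ran 1 to 4 in the Vhl/Hif1a knockout, 0 to 2 in the Vhl/Hif2a knockout, 0 to 2 in the Vhl/Hif1a minus triple effect, 0 to 1 in the Vhl/Hif2a minus triple effect, 0 to 1 in the Vhl/Hif1a against the triple control and 0 to 1 in the Vhl/Hif2a against the triple control, and pathway genes called ran 0 to 1 in the Vhl/Hif1a knockout. Counts over all genes moved by over 1.5 times with settings other than leaving out 1 library: 469 in the Vhl/Hif1a knockout became 758 without the 3 control libraries, 5 in the triple knockout became 2 with 6 libraries, 3 without the 3 control libraries and 11 by DESeq2, 315 in the Vhl/Hif1a minus Vhl/Hif2a effect became 194 with the replicate block and 483 by DESeq2, 263 in the Vhl/Hif1a minus triple effect became 150 with the replicate block and 466 by DESeq2, 44 in the Vhl/Hif1a against the Vhl/Hif2a control became 16 with the replicate block and 86 by DESeq2, 697 in the Vhl/Hif1a against the triple control became 42 with the replicate block, 66 with 6 libraries, 363 without the 3 control libraries and 1298 by DESeq2 and 441 in the Vhl/Hif2a against the triple control became 35 with the replicate block, 17 with 6 libraries and 970 by DESeq2. With 1 library left out, the 469 became 275 to 360, the 5 became 3 to 4, the 263 became 161 to 401, the 44 became 18 to 32, the 697 became 211 to 1187 and the 441 became 141 to 858 in the same comparisons, and there were 213 to 281 in place of 315 in the Vhl/Hif1a minus Vhl/Hif2a effect, 1249 to 1639 in place of 1895 in the Vhl/Hif2a knockout and 675 to 1390 in place of 1031 in the Vhl/Hif2a minus triple effect. The cause of these changes was not tested.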
